A study of Mus musculus with 10 samples.

Results

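Cd5l and 9 genes of the liver X receptor (LXR) system were followed in the aortic arch of mice with and without MyD88. The genes were Cd5l, Abca1, Abcg1, Apoe, Apoc1, Apoc2, Pltp, Lpl, Nr1h3 and Nr1h2. Cd5l was chosen on its measured fall in double-null aorta, and the others were selected by their known place as LXR receptors or LXR-induced lipid genes in macrophages. The choice of genes was made with earlier results of these data known. Of these 10 genes, 9 had a probe, out of 11130 genes with a named probe in the series, and 7 had values. Both genotypes lack apolipoprotein E (ApoE-/-), and the double-null mice lack MyD88 as well (ApoE-/-,MyD88-/-). MyD88 is the adaptor through which interleukin-1 family receptors and most Toll-like receptors signal, and loss of apolipoprotein E raises plasma cholesterol and gives atherosclerotic plaques. For 8 of the 10 arrays the labels state a high fat diet lasting 8 weeks, and the other 2 arrays hold mice that also appear on arrays with that statement. Ages, strain background and the disrupted parts of both genes were not stated there. A 2-colour array compared 1 mouse of each genotype, and the 10 arrays covered 5 such pairs of mice, each once per dye orientation. The mice were female in pair 1 and male in pairs 2 to 4. In pair 5 the double-null mouse was male and the apoE-null mouse female, so sex and genotype cannot be told apart there.

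LXRα (Nr1h3) and LXRβ (Nr1h2) are nuclear receptors that bind oxysterols and act as heterodimers with retinoid X receptors on DNA elements made of direct repeats. In lipid-loaded macrophages they raise transcription of cholesterol exporters, of the apolipoproteins that accept the cholesterol, and of enzymes that remodel lipoproteins. Cd5l, also known as apoptosis inhibitor of macrophages, is a secreted protein with scavenger receptor cysteine-rich domains, made by tissue macrophages and also inducible by LXR. The question here was whether Cd5l fell alone or together with the other LXR targets.

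Promoter sequences are shown for Cd5l, whose transcript had the largest log2 ratio in size among the 7 measured genes, and for Abca1, a textbook LXR target whose window holds a direct repeat. Both are the 250 bases before the transcription start, 5′ to 3′ on the gene's strand, from RefSeq (GRCm38.p6). The Cd5l window lies at chr3:87357631-87357880 on the plus strand, and the Abca1 window at chr4:53159896-53160145 on the minus strand. Capitals mark the half-site GGTCA in Cd5l and a relaxed direct repeat, read on the opposite strand, in Abca1.
Cd5l: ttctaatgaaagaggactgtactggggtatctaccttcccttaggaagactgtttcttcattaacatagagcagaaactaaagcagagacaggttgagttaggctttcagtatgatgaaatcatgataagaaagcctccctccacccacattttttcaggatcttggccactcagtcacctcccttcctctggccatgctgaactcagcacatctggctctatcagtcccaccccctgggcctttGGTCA
Abca1: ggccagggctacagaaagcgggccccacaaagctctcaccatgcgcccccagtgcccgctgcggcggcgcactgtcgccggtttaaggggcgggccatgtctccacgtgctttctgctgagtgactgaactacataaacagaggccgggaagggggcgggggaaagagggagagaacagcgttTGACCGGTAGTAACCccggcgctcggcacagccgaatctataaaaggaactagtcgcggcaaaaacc

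On either strand, the strict direct repeat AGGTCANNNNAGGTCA was present in 0.0152% of 32851 such windows and in none of the 10 windows of the 7 genes matched (Cd5l, Abca1, Apoe, Apoc2, Pltp, Nr1h3 and Nr1h2). The relaxed form GGTNANNNNNGGTCA, written with the Abca1 element known, was present in 0.177% of windows and among the 7 genes in Abca1 only. The half-site GGTCA, which both repeats contain, was present in 35.2% of all windows and in 4 of these 10 windows, 1 each for Cd5l, Abca1, Apoe and Apoc2. In Cd5l it ends at the base before the annotated start. These matches describe letters in a short window and do not show binding.

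Values are log2 ratios, turned to read double-null over apoE-null, so that a negative value means less transcript in double-null aorta. The authors gave the opposite direction. Each array gave 4581 to 7057 values for 13872 probes, and blanks made up 49.1% to 67.0% of an array. A pair value is the mean of its 2 arrays, n counts pairs, and 4866 probes with at least 3 pair values were tested against 0 with limma, with Benjamini-Hochberg adjustment over all of them. The median of the tested probes was -0.04. Myd88 itself was below 0 on all 10 arrays, with pair values between -1.15 and -0.57 (mean -0.90 ± 0.22, SD, n = 5, adjusted p = 0.0248). With any 1 pair left out its mean lay between -0.98 and -0.84 and the call was lost (limma, adjusted p = 0.0528 to 0.119). The labels number separate mice, although in pair 1 the 2 arrays exchange the genotypes of the numbered mice. The spread between pairs thus includes differences between animals of both genotypes, array error and, through pair 5, sex. In RNA from whole vessel, fewer cells of a type and less RNA per cell cannot be told apart, and ratios carry no level of expression.

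Cd5l was lower in double-null aorta on all 10 arrays. Its log2 ratio with double-null RNA in channel 1 and then in channel 2 was -2.81 and -2.58 in pair 1, -1.95 and -2.12 in pair 2, -2.19 and -2.63 in pair 3, -1.83 and -1.99 in pair 4, and -1.05 and -1.07 in pair 5. The female pair was lowest and the pair of unlike sex highest, and the arrays of a pair stayed close to each other. As folds of apoE-null over double-null, the pairs gave 6.48, 4.11, 5.32, 3.76 and 2.09. The mean was -2.02 ± 0.62 (SD, n = 5), a 4.07-fold decrease. Because this value chose the gene, it is a description with no test. By mean log2 ratio Cd5l lay at the lower end of all 4866 tested probes.

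None of the 6 other measured genes passed the test across all probes, although all 6 had a mean below 0. In that fit 0.185% of probes were called lower and 0.596% higher. At an unadjusted p under 0.05 limma gave 1 of the 6 genes, Pltp, against 287 lower and 201 higher among all probes. The median over the 6 genes was -0.37, and 58.7% of all tested probes had a mean below 0. Ranked by mean from the lowest of all tested probes, Pltp was at percentile 3.0, Lpl at 4.5 and Abcg1 at 6.1. Apoe was at 6.8, Apoc1 at 15.6 and Nr1h3 at 48.2. These ranks were not tested. Of the 4 genes among them with 5 pair values (Abcg1, Pltp, Lpl and Nr1h3), 0 were below 0 in every pair, where 6.56% of all probes with 5 pair values were. The plot of log2 ratios by array shows Cd5l apart from the rest.

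**Figure D1:**
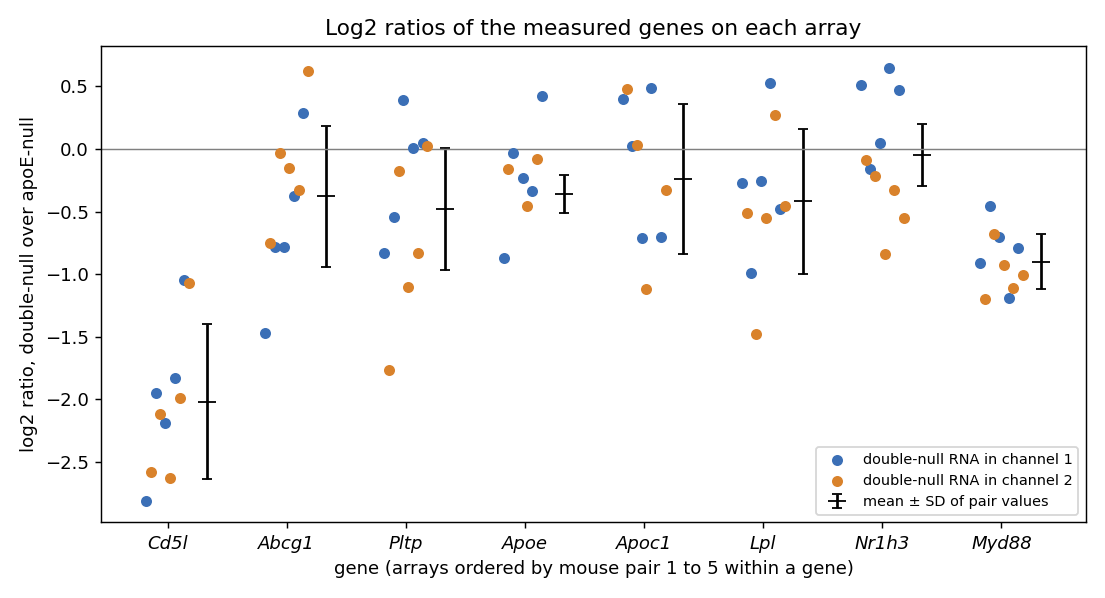
Log2 ratio of double-null over apoE-null (y axis) for each measured gene and for Myd88 (x axis); each point is 1 array, coloured by the channel that held double-null RNA, and bars give the mean ± SD of the pair values (n = 5, but 3 for Apoe and 4 for Apoc1). Of the Cd5l arrays, only those of pair 5, at -1.05 and -1.07, overlap arrays of the other measured genes (Abcg1, Pltp, Apoc1 and Lpl); the rest are at -1.83 or lower.

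The LXR receptors gave 1 measurable gene. Nr1h3, which encodes LXRα, had pair values of 0.21, -0.19, -0.40, 0.16 and -0.04 in pairs 1 to 5, with a mean of -0.05 ± 0.25 (SD, n = 5, adjusted p = 0.884, 95% confidence interval -0.34 to 0.24). The values lay on both sides of 0, and the mean was near the median of all probes. Array by array, with double-null RNA in channel 1 and then channel 2, they were 0.51 and -0.09, -0.16 and -0.22, 0.05 and -0.84, 0.65 and -0.33, and 0.47 and -0.55. Nr1h3 was also the 1 gene of the 7 with a dye effect, that is, a ratio that differed between orientations (limma, adjusted p = 0.0404). It was above 0 on 4 of 5 arrays with double-null RNA in channel 1 (mean 0.30) and below 0 on 5 of 5 with it in channel 2 (mean -0.41). For LXRβ, Nr1h2, the platform annotation used here names no probe.

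Among the cholesterol exporters, Abcg1 had values and Abca1 did not. Abcg1, which moves cholesterol to high density lipoprotein, had pair values of -1.11, -0.41, -0.46 and -0.36 in pairs 1 to 4 and 0.46 in pair 5. It was thus lower in the 4 pairs of like sex and higher in the pair of unlike sex, and its mean was -0.38 ± 0.56 (SD, n = 5, adjusted p = 0.550, 95% confidence interval -0.84 to 0.08). On its arrays, in the same order, Abcg1 read -1.47 and -0.75, -0.78 and -0.03, -0.78 and -0.15, -0.38 and -0.33, and 0.29 and 0.62, so that 8 of 10 were below 0. Abca1, which loads cholesterol onto apolipoprotein A-I, has 1 probe that was blank on all 10 arrays, so no ratio could be given.

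Neither measured apolipoprotein of the Apoe gene cluster was called, with Apoe below 0 in its 3 pairs and Apoc1 on both sides of 0. Apoe, disrupted in both genotypes, had array values from -0.87 to 0.42 on the 8 arrays with a value. Its 3 pair values were -0.52, -0.34 and -0.21 in pairs 1, 3 and 4 (mean -0.36 ± 0.15, SD, n = 3, adjusted p = 0.511). Its highest array, 0.42, belongs to pair 5, where the partner array was blank, so that pair did not enter the mean. Whether the Apoe probe reads the disrupted part of the transcript was not tested. Apoc1, an inhibitor of lipoprotein uptake and of lipid transfer, had pair values of 0.44, 0.03, -0.92 and -0.52 in pairs 1, 2, 3 and 5 (mean -0.24 ± 0.60, SD, n = 4, adjusted p = 0.705). Pairs 3 and 5 were low and pairs 1 and 2 were not. Apoc2, the activator of lipoprotein lipase, has 1 probe that was blank on all arrays. Apoc4, which lies between Apoc2 and Apoc1 in gene order, had -0.16 ± 0.38 (SD, n = 3, adjusted p = 0.760) on 1 of its 2 probes, and the other had values on 6 arrays and was not tested. Tomm40, the gene on the other side of Apoe, had -0.03 ± 0.33 (SD, n = 5, adjusted p = 0.948).

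The lipoprotein-remodelling genes Pltp and Lpl had the lowest means after Cd5l. Pltp, which transfers phospholipids between lipoproteins, had pair values of -1.30, -0.36, -0.36, -0.41 and 0.03, with the female pair lowest and the pair of unlike sex at about 0. Its mean was -0.48 ± 0.49 (SD, n = 5, adjusted p = 0.446, 95% confidence interval -0.90 to -0.06, before adjustment). Its orientation means were -0.18 and -0.77, and in pair 3 its 2 arrays read 0.39 and -1.10. Lpl, which releases fatty acids from triglyceride-rich lipoproteins and is made by macrophages, adipocytes and muscle, had -0.39, -1.23, -0.41, 0.40 and -0.47. Only pair 4 was above 0, on both of its arrays (0.53 and 0.27). The mean was -0.42 ± 0.58 (SD, n = 5, adjusted p = 0.522). Pair medians of 7 adipocyte markers were 1.82, -0.03, -0.26, 1.14 and -0.54, and their part in the Lpl ratio was not tested.

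**Figure D2:**
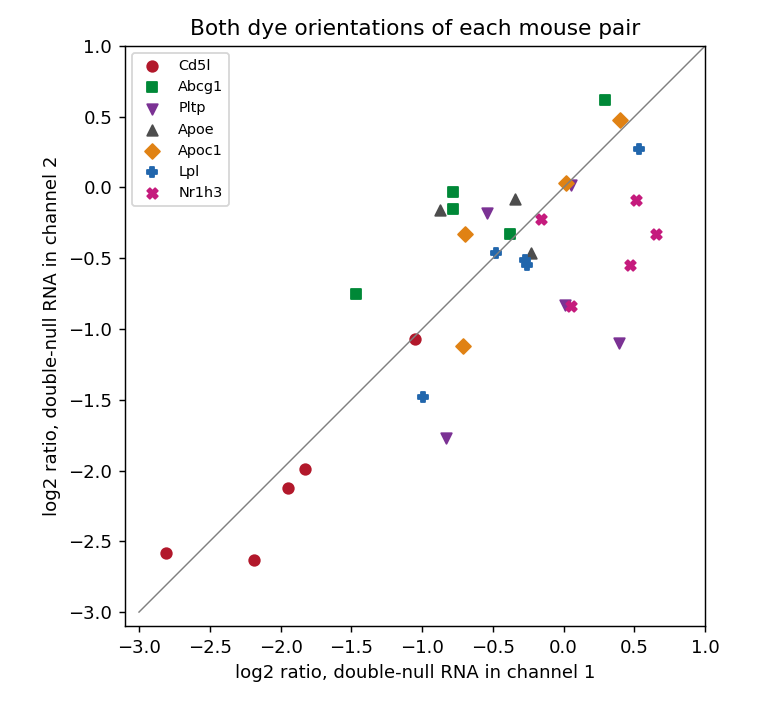
Log2 ratio on the array with double-null RNA in channel 1 (x axis) against the array with it in channel 2 (y axis); each point is 1 gene in 1 mouse pair with values on both arrays, and the grey line marks equal values. Cd5l lies along the line between -2.81 and -1.05, and the 5 Nr1h3 points lie below it.

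Cd5l read nearly the same in both dye orientations. The channel 1 mean minus the channel 2 mean, divided by 2, was 0.06 on the log2 scale (limma, adjusted p = 0.712). An effect was called for 1 of the 7 genes (Nr1h3) and for 4.75% of all probes. At an unadjusted p under 0.05 limma gave 3 of the genes, Nr1h3, Abcg1 and Pltp, and 1041 probes in all. The dye difference had opposite signs in Abcg1 and Pltp: this quantity was -0.25 for Abcg1, lower with double-null RNA in channel 1, and 0.30 for Pltp, lower with it in channel 2.

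In each pair Cd5l was below every other measured gene of the set. Cd5l minus the median of the others was -2.25, -1.68, -2.01, -1.70 and -1.02 in pairs 1 to 5 (mean -1.73 ± 0.46, SD, n = 5). The lowest other gene was Pltp at -1.30 in pair 1, Lpl at -1.23 in pair 2, Apoc1 at -0.92 in pair 3, Pltp at -0.41 in pair 4 and Apoc1 at -0.52 in pair 5. The median of the others was -0.45, -0.36, -0.40, -0.21 and -0.04, below 0 in 5 of 5 pairs. Since Cd5l was chosen for its fall, this gap is given with no test.

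Macrophage markers were lower in pairs 1 to 4 and higher in pair 5, where Cd5l was still at -1.06. The distance of Cd5l and Abcg1 from them varied less between pairs than the ratios themselves did. All 14 general macrophage markers measured had a mean below 0, with a median of -0.48 and pair medians of -1.13, -0.48, -0.75, -0.44 and 0.31. None was called by limma over all probes, and 9 were below 0.05 unadjusted, led by Lyz2 (-0.81 ± 0.54, SD, n = 5, adjusted p = 0.157), C1qa (-0.87 ± 0.41, SD, n = 3, adjusted p = 0.183), C1qc (-0.60 ± 0.49, SD, n = 5, adjusted p = 0.281) and C1qb (-0.58 ± 0.49, SD, n = 5, adjusted p = 0.313). Among all 4866 tested probes, 58.7% had a mean below 0 and 287 were lower at an unadjusted p under 0.05 (limma). Lyz2 encodes lysozyme and the C1q genes encode chains of the first complement component. Subtracting the marker median in each pair, a step chosen after the values were seen, left Cd5l at -1.57, -1.56, -1.66, -1.47 and -1.37. The spread between pairs went from an SD of 0.62 to 0.11 around a mean of -1.53 (n = 5). Abcg1 was left at 0.01, 0.07, 0.29, 0.08 and 0.15, and its SD went from 0.56 to 0.10 around 0.12. Pltp went from an SD of 0.49 to 0.26, around 0.02, but without pair 1 it went from 0.21 to 0.27, so its narrower spread rested on that pair.

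For the remaining genes the subtraction widened the spread. For Lpl the SD went from 0.58 to 0.79 and for Nr1h3 from 0.25 to 0.61 (n = 5), for Apoc1 from 0.60 to 1.02 (n = 4) and for Apoe from 0.15 to 0.19 (n = 3). The median SD over 3612 probes with 5 pair values went from 0.30 to 0.60. The subtracted median itself had an SD of 0.53 between pairs, which adds spread to probes that do not vary with it. Of these 3612 probes, 0.2% had a smaller SD of the difference than Cd5l, 0.1% than Abcg1, 1.9% than Pltp, 54.2% than Nr1h3 and 85.4% than Lpl. These shares are descriptions with no test, as Cd5l was chosen for its fall and the subtraction after the values were seen. The macrophage markers themselves had SDs of 0.10 to 0.69 (13 probes), and 12 of these were above that of Cd5l. Leaving out any 1 pair kept the share between 0.2% and 0.6% for Cd5l. It lay between 0.0% and 1.9% for Abcg1, highest without pair 5, and between 0.7% and 12.0% for Pltp, lowest without pair 3 and highest without pair 5. The part of macrophage content in these ratios was not tested.

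**Figure D3:**
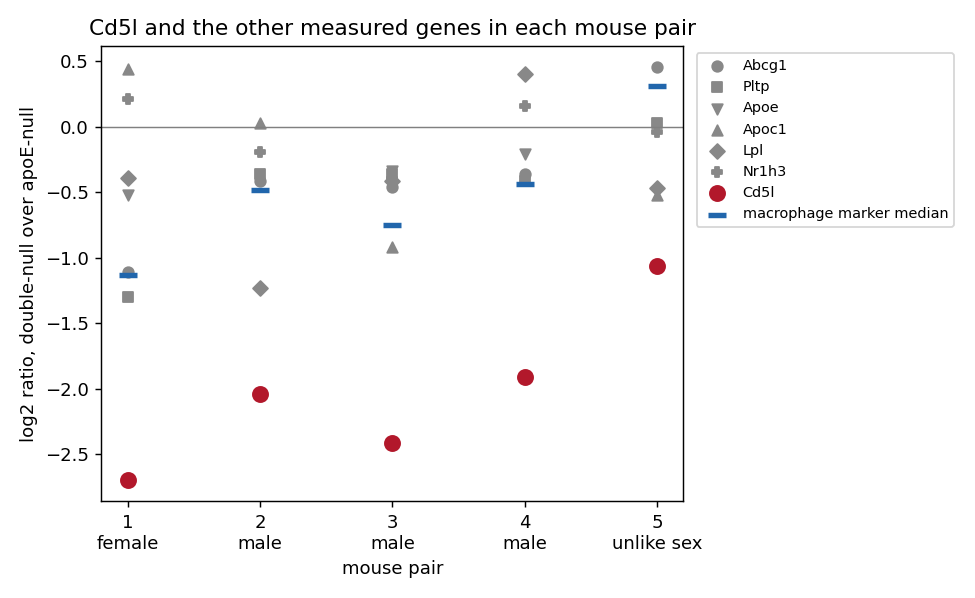
Pair value of the log2 ratio (y axis) in each mouse pair (x axis, with the sex of the pair) for Cd5l (red), the other measured genes (grey symbols) and the median of 14 general macrophage markers (blue bars). Cd5l minus the blue bar is between -1.66 and -1.37 in every pair, and Abcg1 stays within 0.29 of the bar.

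Markers of tissue-resident macrophages, the cells best known for Cd5l, gave a mixed picture. Of 8 genes with a probe, 5 were measured and none was called, with 1 below 0.05 unadjusted. Over all 4866 tested probes, limma called 0.185% lower and 0.596% higher, and 287 were lower at an unadjusted p under 0.05. Selenop, which encodes the plasma selenoprotein P, was below 0 in 5 of 5 pairs (-0.58 ± 0.24, SD, n = 5, adjusted p = 0.0958), as were 6.56% of all probes with 5 pair values. The mannose receptor gene Mrc1 had -0.27 ± 0.26 (SD, n = 5, adjusted p = 0.511), Cd163, the haemoglobin scavenger receptor gene, 0.10 ± 0.51 (SD, n = 4, adjusted p = 0.857) and Folr2, a folate receptor gene, 0.17 ± 0.90 (SD, n = 3, adjusted p = 0.857). The median over gene means was 0.02 and the pair medians were between -0.55 and -0.13; the genes with a value differ between pairs, and the part of this in the difference of sign was not tested. Clec4f, Spic and Marco, which mark resident macrophages of liver, spleen and other sites, had a probe and too few values to test.

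Other LXR targets were not called either. Of 9 measured out of 13 with a probe, none was called and 6 had a mean below 0, with a median of -0.16. Over all tested probes 58.7% had a mean below 0, 0.185% were called lower and 0.596% higher. At an unadjusted p under 0.05 limma gave 1 of the 9, Smpdl3a, a phosphodiesterase gene (-0.35 ± 0.32, SD, n = 5, adjusted p = 0.471). At that level 287 of all 4866 tested probes were lower and 201 higher. Tgm2, which encodes transglutaminase 2, was below 0 in 5 of 5 pairs (-0.26 ± 0.20, SD, n = 5, adjusted p = 0.496), as were 6.56% of all probes with 5 pair values. The phagocytic receptor gene Mertk had -0.42 ± 0.65 (SD, n = 4, adjusted p = 0.574). Scd1, a fatty acid desaturase gene and lipogenic target, had 0.72 ± 1.19 (SD, n = 5, adjusted p = 0.554) on the other side of 0. The other genes of the list above 0 were Scd2 (0.36 ± 0.69, SD, n = 5) and Fasn (0.66 ± 2.17, SD, n = 5). For Scd1, Scd2 and Fasn the spread between pairs exceeded the mean.

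LXR partners and coregulators had a median near 0. Of 7 measured out of 11 with a probe, none was called by limma and 0 were below 0.05 unadjusted, with a median of -0.01. At that level 287 of all 4866 tested probes were lower and 201 higher. The pair medians of the list were -0.32, 0.15, -0.01, 0.03 and -0.06 in pairs 1 to 5. Med1, a Mediator subunit gene, had -0.25 ± 0.39 (SD, n = 5, adjusted p = 0.596). The retinoid X receptor gene Rxrb had 0.21 ± 0.26 as the mean of its 2 probes (SD, n = 5, smaller adjusted p of the probes = 0.616). The coactivator genes Ncoa3 and Ncoa1 had 0.19 ± 0.17 (SD, n = 4, adjusted p = 0.618) and -0.09 ± 0.26 (SD, n = 5, adjusted p = 0.787).

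Genes of lipid uptake, storage and oxysterol metabolism were also not called, with 10 measured out of 15 with a probe and a median of -0.09. Lipa, the lysosomal lipase gene, had -0.49 ± 0.58 (SD, n = 5, adjusted p = 0.483) and was the 1 gene below 0.05 unadjusted. At that level 287 of all 4866 tested probes were lower and 201 higher. Lrp1, an endocytic receptor gene, had -0.43 ± 0.39 (SD, n = 3, adjusted p = 0.512) and the scavenger receptor gene Msr1 -0.33 ± 0.43 (SD, n = 3, adjusted p = 0.596). Cd36, a fatty acid transporter gene whose product binds Cd5l protein, had 0.39 ± 0.70 (SD, n = 5, adjusted p = 0.593). Pair medians of this list ran from -0.50 in pair 3 to 0.55 in pair 4.

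In the scavenger receptor cysteine-rich family, to which Cd5l belongs, 4 relatives were measured out of 9 with a probe. Over all tested probes, 0.596% were called higher and 0.185% lower. The 1 relative called was Loxl2, a lysyl oxidase relative, at 0.86 ± 0.30 on 1 tested probe of 2 (SD, n = 5, adjusted p = 0.0363). The call was lost with any 1 pair left out (limma, adjusted p = 0.0528 to 0.131). Its orientation means had opposite signs, -0.58 and 2.29, with a dye effect at adjusted p = 5.28e-06. Cd163 and Msr1 are given above, and Lgals3bp had -0.10 ± 0.35 (SD, n = 4, adjusted p = 0.822). Cd5, Cd6, Marco, Dmbt1 and Scara5 had a probe and too few values to test.

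**Figure D4:**
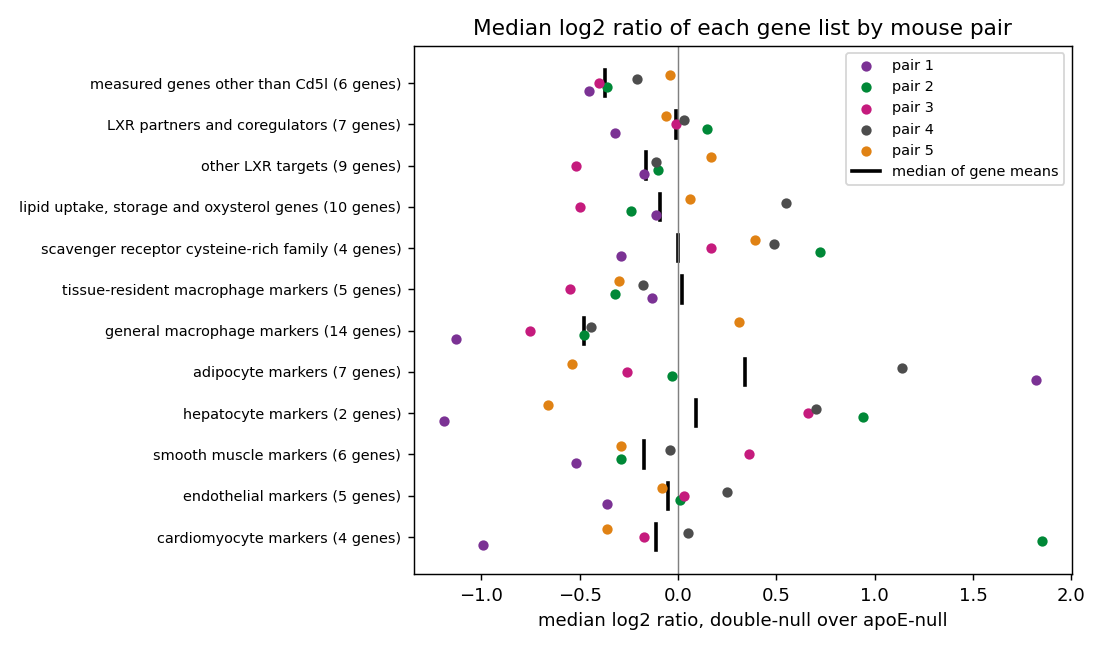
Median log2 ratio (x axis) of each gene list (y axis, with the number of genes measured); coloured points are mouse pairs and black bars are the median of the gene means. The general macrophage markers lie at -0.48 and the other LXR targets at -0.16, and the adipocyte, hepatocyte and cardiomyocyte lists spread widely between pairs.

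Markers of other cell types were not called by limma, and at an unadjusted p under 0.05 there was 1 lower smooth muscle gene, 1 lower cardiomyocyte gene and 1 higher hepatocyte gene. Among all 4866 tested probes, 287 were lower and 201 higher at that level. The smooth muscle gene, Smtn, reached it on 1 of its 2 probes (limma, unadjusted p = 0.0279 and 0.431). The lists had medians of -0.17 for 6 smooth muscle genes, -0.05 for 5 endothelial genes, -0.11 for 4 cardiomyocyte genes, 0.34 for 7 adipocyte genes and 0.09 for 2 hepatocyte genes. The vessel wall markers with the smallest p were Smtn for smooth muscle (-0.23 ± 0.28 as the mean of 2 probes, SD, n = 5, smaller adjusted p = 0.433) and Kdr for endothelium (0.24 ± 0.49, SD, n = 5, adjusted p = 0.656). Of genes made chiefly by liver, Alb had 0.48 ± 0.53 (SD, n = 5, adjusted p = 0.471) and Ahsg -0.29 ± 1.52 (SD, n = 5, adjusted p = 0.825). Adipoq, the adiponectin gene, had 0.65 ± 1.19 (SD, n = 5, adjusted p = 0.577), and Actc1, the cardiac actin gene, -0.45 ± 0.33 (SD, n = 4, adjusted p = 0.422).

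The probes whose pair values came closest to those of Cd5l were Cxcl1, Ccl2, Kif17, Il18bp and Bcl2a1c, out of 3297 named probes with 5 pair values. Likeness was the root mean square difference of the pair values, which was 0.89 for Cxcl1 and 1.12 to 1.18 for the other 4. None was as low as Cd5l: their means were -1.67, -1.04, -0.86, -0.86 and -0.89. The order of Cxcl1 and Cd5l was not the same in all pairs: Cxcl1 was at -1.66, -0.90, -1.75 and -1.87 in pairs 1 to 4, above Cd5l in each, and at -2.14 in pair 5, below Cd5l. Kif17, Il18bp and Bcl2a1c had their highest value in pair 5 (0.00, 0.13 and 0.26), as Cd5l did. The measure counts a difference in mean as well as in pattern, so for a probe as low as Cd5l it favours low means. Because these pair values chose the probes, their likeness is a description with no test.

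In gene order, the nearest neighbour of Cd5l with a tested probe was Fcrls, an Fc receptor-like gene expressed by myeloid cells and named here after its values were seen. It had pair values of -1.04, -0.59, -0.54 and -0.63 in pairs 1, 3, 4 and 5, all below 0 (mean -0.70 ± 0.23, SD, n = 4), and did not pass (adjusted p = 0.0958). Cd1d1, the lipid-presenting molecule gene further along, had 0.52 ± 0.92 (SD, n = 5, adjusted p = 0.576).

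With 1 female pair, the comparison of sexes rests on assuming that its spread equals that of the males. A difference between the sexes cannot be told apart here from a difference of that single pair. Pair 1 is also the pair whose arrays exchange the genotypes of its mice in the labels. A sex difference (pair 1 against pairs 2 to 4) was called by limma for 0 of the 7 genes and for 0.198% of 4553 probes. At an unadjusted p under 0.05 there were 2 genes and 708 probes. Pltp was -1.30 in the female pair against a male mean of -0.38 (adjusted p = 0.185), and Abcg1 -1.11 against -0.41 (adjusted p = 0.301). Cd5l was -2.70 against -2.12 (adjusted p = 0.461). The corresponding macrophage marker medians were -1.13 in the female pair and -0.48, -0.75 and -0.44 in the male pairs, and their part in these differences was not tested.

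**Figure D5:**
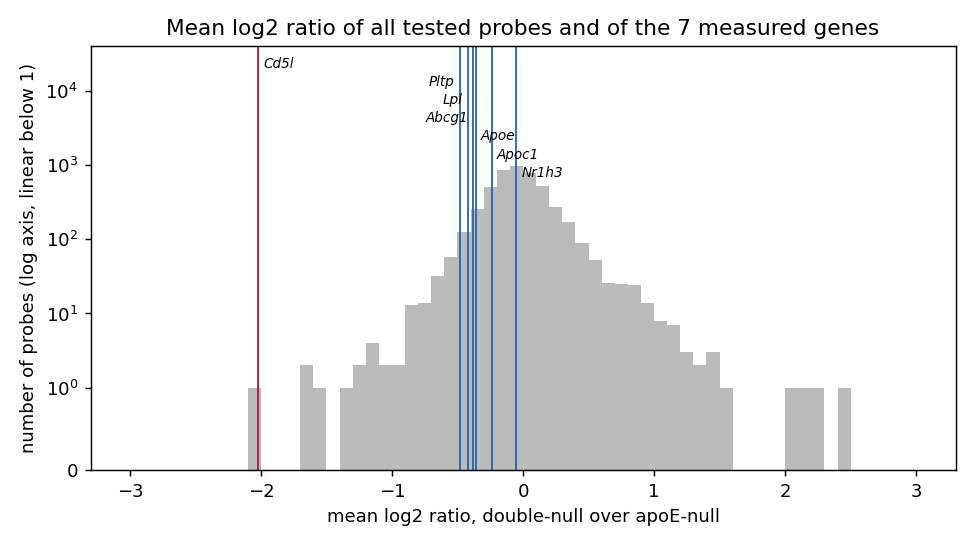
Number of probes (y axis, log scale, linear below 1) by mean log2 ratio of double-null over apoE-null (x axis) for 4866 tested probes; vertical lines mark the 7 measured genes. Cd5l, at -2.02, is at the lower edge, and the other 6 lie between -0.48 and -0.05.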

How the data were processed

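RNA from mouse aortic arch was amplified with T7 polymerase, labelled chemically and hybridised to 2-colour arrays, which the authors quantified in GenePix Pro 3.0 and processed in GeneSpring (per the labels' protocols). What the authors deposited is, by the labels' titles and the values, a log2 ratio with apoE-null on top. How it was normalized and why cells are blank was not given in the labels. The lowest value, -6.64, is the log2 of 0.01. Depth on arrays is not a count, and the number of arrays and of values limits the precision.

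Signs were turned, the 2 arrays of a pair averaged, and every probe with at least 3 pair values tested against 0 with limma 3.58.1 in R 4.3.3 (lmFit, eBayes, two-sided, threshold 0.05). The dye effect was tested on the difference between orientations divided by 2, and sex as a term over pairs 1 to 4. The fit was tested on simulated data. In pair 1 the labels of 1 array swap the genotypes of its mice relative to the other, and each array's genotype labels were followed. The platform annotation named the probes, with symbols brought up to date through Entrez identifiers for 12009 of 12143 single-symbol probes. In the gene lists, a gene with several probes is their mean, with the smallest p of its probes. Macrophage markers were subtracted as an alternative added after seeing the data.

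The members and gene lists were chosen with earlier results of these data known. Named are all members, Myd88, up to 4 genes of each list with the smallest p, and the 5 probes closest to Cd5l. Others (Fcrls, Cd1d1, Tomm40, Apoc4, Scd2, Fasn and genes without enough values) were named after their values were seen. Alternatives left out each pair, changed the arrays per pair, the orientation, centring, scaling, filters, the floor, the empirical Bayes step and the unit of the fit, or kept the male pairs alone.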

Additional observations from a re-analysis of the deposited data

How the results depend on the processing

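None of the 6 genes other than Cd5l passed the test under any of the 17 alternatives. The mean of Cd5l lay between -2.26 and -1.86 over its 17 alternatives, and Cd5l minus the median of the others between -1.91 and -1.60 over 7. Abcg1, Pltp, Lpl, Apoe and Apoc1 kept a mean below 0 in each alternative that gave a value, but its size moved: Abcg1 (-0.38) lay between -0.62 and -0.13 and was -0.19 without pair 1 and -0.59 without pair 5, Pltp (-0.48) between -0.77 and -0.18 and was -0.27 without pair 1, Lpl (-0.42) between -0.62 and -0.22 and was -0.22 without pair 2, Apoc1 (-0.24) between -0.47 and -0.02 and was -0.47 without pair 1, -0.02 without pair 3 and -0.15 without pair 5, and Apoe (-0.36) between -0.36 and -0.14, the latter with 1 array enough for a pair value. Apoe, with 3 pair values, had no value without pairs 1, 3 or 4, with all 5 pair values required or in the male pairs alone, and Apoc1 none with all 5 required or in the male pairs. The sign of Nr1h3 turned without pair 3 (0.03) and with channel 1 alone as the double-null channel (0.30). The dye effect called for 1 gene (Nr1h3) was called for 0 to 1 genes when a pair was left out; it was lost without pair 1, 3, 4 or 5. The median of the tissue-resident macrophage markers, 0.02, lay between -0.28 and 0.10 when a pair was left out and was -0.34 in the 3 male pairs, with 5 genes behind it. No other list median moved by more than the spread between pairs, which was wide for some lists. Several medians took both signs over the alternatives: adipocyte (-0.02 to 0.72), hepatocyte (-0.12 to 0.77) and cardiomyocyte (-0.35 to 0.35). So did smooth muscle (-0.32 to 0.02), endothelial (-0.08 to 0.08), LXR partners (-0.06 to 0.03) and the scavenger receptor family (-0.06 to 0.17). Over all probes the 9 lower and 29 higher calls became 0 and 0 without pair 4, 1 and 1 without pair 2, 1 and 4 without pair 3, 5 and 6 without pair 1, 16 and 9 without pair 5, 29 and 26 in the male pairs, 38 and 21 with channel 1 alone, 14 and 105 with channel 2 alone and 21 and 14 with single arrays. Genes with values in few pairs, and those blank on all arrays, set the limit on what can be said of Apoe, Abca1 and Apoc2. No sample pairing by replicate number applies, because each array already holds both genotypes.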
